A study of Mus musculus with 27 samples.

Results

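DNA methylation was compared between hepatocytes of A/J, a laboratory strain of mice, and of WSB/EiJ, a strain derived from wild mice. Per the labels, the cells came from the livers of female mice aged 12 weeks, with 3 samples of each strain given as separate biological replicates (numbers 1, 2 and 3 in A/J and 2, 3 and 4 in WSB/EiJ), and no treatment is named. These 6 samples belong to a survey of 27 samples from 9 inbred strains, measured by reduced representation bisulfite sequencing (RRBS), which reads CpG-rich fragments cut by the enzyme MspI. The pair was selected on measured levels: in an earlier reading of the same files, most of the regions that differed between these strains had the higher level in A/J. The number of differing regions, their split by direction and their sizes are therefore given as a description of these samples, with no test of that split. In all, 3923982 positions were listed in at least 1 of the 6 files, and the 2362100 that were listed in all 6 were compared. A stretch of chromosome 17 from 39843014 to 39848754 was left out. Its 768 shared positions stood at 41.7, 45.9 and 42.7% in A/J and at 13.1, 13.2 and 19.1% in WSB/EiJ.

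In mammals most methylation lies on the cytosine of CpG dinucleotides. CpG-dense stretches at gene starts are usually unmethylated, whereas most CpGs inside genes and between genes are methylated, and the level between these extremes often differs among cell types and among strains. Bisulfite turns unmethylated cytosine into a base that is read as T, so the percent at a position is the share of reads that kept a C. A percent between 0 and 100 can come from a mixture of methylated and unmethylated cells or from cells with a single methylated allele, and these cannot be told apart in bulk samples. The deposited values give no read counts, so the depth of each percent is unknown and no interval for counting error can be stated.

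Shown first are 4 stretches at transcription starts, since they put the difference in both directions on the sequence of named genes. They are the RefSeq windows (GRCm38.p6) from 250 bases before to 50 bases after the start, written 5′ to 3′ on the strand of the gene, and were taken for those called tiles named below for their place at a gene end that share at least 5 listed positions with such a window. Capitals mark the bases listed in all 6 samples, a C on the strand shown or the G that pairs with the C of the other strand. The first pair was higher in WSB/EiJ and the second pair higher in A/J. The windows are Gal (chr19:3414495-3414794, minus strand), Akr1b8 (chr6:34353896-34354195, plus strand), Lxn (chr3:67463858-67464157, minus strand) and Gm42365 (chr4:155962494-155962793, plus strand).
Gal: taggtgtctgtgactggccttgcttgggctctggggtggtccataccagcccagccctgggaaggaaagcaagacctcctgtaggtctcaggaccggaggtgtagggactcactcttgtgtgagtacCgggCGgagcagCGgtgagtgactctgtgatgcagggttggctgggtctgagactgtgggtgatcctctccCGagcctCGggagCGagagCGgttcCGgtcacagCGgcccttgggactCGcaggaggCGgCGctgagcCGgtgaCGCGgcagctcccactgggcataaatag
Akr1b8: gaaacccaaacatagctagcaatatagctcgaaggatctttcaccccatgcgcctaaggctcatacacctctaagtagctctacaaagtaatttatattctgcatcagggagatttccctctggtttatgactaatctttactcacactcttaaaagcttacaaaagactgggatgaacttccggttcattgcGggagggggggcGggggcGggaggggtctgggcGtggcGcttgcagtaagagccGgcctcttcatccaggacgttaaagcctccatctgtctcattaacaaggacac
Lxn: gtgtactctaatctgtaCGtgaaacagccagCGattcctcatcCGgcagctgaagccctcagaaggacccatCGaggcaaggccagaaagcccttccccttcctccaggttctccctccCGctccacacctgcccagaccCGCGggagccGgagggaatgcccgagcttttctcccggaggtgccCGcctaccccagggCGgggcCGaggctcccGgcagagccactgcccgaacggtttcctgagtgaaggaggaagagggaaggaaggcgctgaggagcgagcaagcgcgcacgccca
Gm42365: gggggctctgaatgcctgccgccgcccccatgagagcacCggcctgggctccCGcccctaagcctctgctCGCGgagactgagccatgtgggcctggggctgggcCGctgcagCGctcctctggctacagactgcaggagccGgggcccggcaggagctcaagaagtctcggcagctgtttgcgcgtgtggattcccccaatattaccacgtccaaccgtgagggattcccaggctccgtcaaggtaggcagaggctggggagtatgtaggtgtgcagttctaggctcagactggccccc

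Gal encodes galanin, a neuropeptide. Over the 29 marked positions of its window the A/J samples stood at 12.7, 14.1 and 13.6%, and the WSB/EiJ samples at 81.1, 78.5 and 75.1%. The strains did not overlap, and at 29 of the 29 positions every WSB/EiJ sample lay above every A/J sample. Position means ran from 1.15 to 49.7% in A/J and from 39.0 to 97.2% in WSB/EiJ. Akr1b8 encodes an aldo-keto reductase, an enzyme that reduces aldehydes. Its 6 marked positions averaged 11.1, 10.3 and 27.1% in A/J and 69.7, 83.1 and 68.3% in WSB/EiJ, and the samples were apart at 5 of the 6. The limma call of its tile was lost when any sample other than A/J replicate 3 was left out, with adjusted p from 0.0532 to 0.0599.

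Lxn encodes latexin, an inhibitor of carboxypeptidases, and lies within the span of Gfm1, which encodes a mitochondrial translation elongation factor. Over 22 marked positions the A/J samples stood at 67.9, 66.2 and 77.5%, and the WSB/EiJ samples at 3.96, 6.13 and 8.27%. Here A/J was the high strain, with every A/J sample above every WSB/EiJ sample at 20 of the 22 positions. Gm42365 is a long noncoding RNA gene that overlaps C1qtnf12, the gene of the secreted protein adipolin. Its 12 marked positions averaged 77.2, 79.8 and 78.5% in A/J and 15.3, 8.61 and 8.25% in WSB/EiJ, with the samples apart at all 12. Of the Lxn tiles, the one at chr3:67463001-67464000 lost its limma call without any sample other than A/J replicate 2 (adjusted p from 0.0582 to 0.0956). All marked bases of the 4 windows lie in CpGs of the reference sequence.

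**Figure D1:**
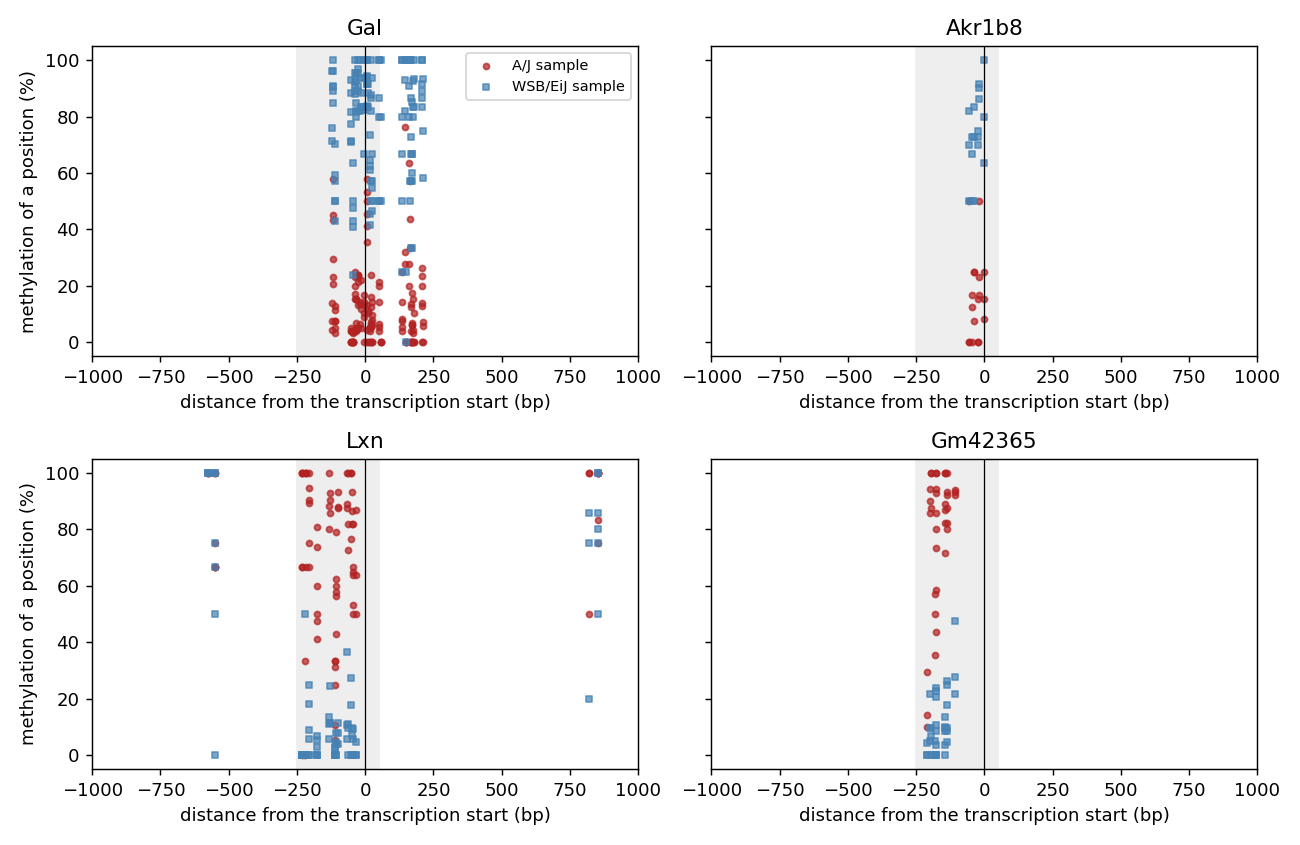
Methylation (%) of single positions listed in all 6 samples, against the distance in bp from the transcription start of Gal, Akr1b8, Lxn and Gm42365, with 1 red circle per A/J sample and 1 blue square per WSB/EiJ sample. The shaded band is the window from 250 bp before to 50 bp after the start, in which WSB/EiJ lies above A/J at Gal and Akr1b8 and below it at Lxn and Gm42365.

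Over all 2362100 shared positions the mean level was 38.4, 38.3 and 38.3% in the A/J samples and 37.5, 37.3 and 37.6% in the WSB/EiJ samples. The A/J samples were all above the WSB/EiJ samples, at 38.4% ± 0.0543 (SD, n = 3) against 37.5% ± 0.146 (SD, n = 3), a difference of 0.914 points. At the 1691782 positions listed in all 27 samples the difference was 0.950 points. Pearson correlations across positions, which are not independent of each other, were 0.949 to 0.951 between A/J samples, 0.955 to 0.959 between WSB/EiJ samples and 0.943 to 0.949 between the strains.

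To describe regions, the genome was cut into tiles of 1 kb, and the 83852 tiles with at least 5 shared positions and a mean between 2.5 and 97.5% were tested with limma. A tile mean covers only the positions listed in the tile, which can lie in a small part of the 1 kb. Called tiles are those with a difference of strain means of at least 25 points and a p under 0.05 after Benjamini-Hochberg adjustment. This named 801 tiles, or 0.955% of those tested, of which 594 were higher in A/J (0.708%) and 207 higher in WSB/EiJ (0.247%). A/J was thus the high strain in 74.2% of the called tiles, which is the property for which the pair was chosen. The count depended on each of the 6 samples: with any of them left out, 327 to 435 tiles were called, and 67.0 to 73.6% of them were higher in A/J. With an offset of 1 point in the log ratio 525 tiles were called. With at least 10 positions per tile 392 were called, out of only 32395 tested tiles. Just inside the size limit lay tiles with differences of 25.04, 25.06 and 25.09 points, and just outside it 24.98, 24.98 and 24.99 points. Another 330 tiles differed by 25 points or more without an adjusted p under 0.05, 232 higher in A/J and 98 higher in WSB/EiJ. In all 801 called tiles the samples of the strains did not overlap, so a lack of overlap in a named tile adds nothing to its call.

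Tested one by one, 1319 of 1129105 single positions were called (0.117%), 894 higher in A/J (0.0792%) and 425 higher in WSB/EiJ (0.0376%). The split, 67.8% higher in A/J, was 62.9% after centring on the median and 60.7% after quantile normalization. With a sample left out, 237 to 330 positions were called. The count also moved widely with the fit, to 150 with an offset of 1 point in the log ratio and 4936 on untransformed percent. Without the filter on the mean 2687 were called, but of 2362100 tested positions, so the number of features rose as well. With the spread taken from all 27 samples 5764 were called, which also restricts the test to 685465 positions listed in all of them. The median size at called positions was 82.9 points. All 1319 positions with an adjusted p under 0.05 in the limma test passed the limit of 25 points, and 1296 passed 50 points. The limit on p thus let only large differences through, and this median does not describe positions that were not called. Of the called positions, 342 were followed by a tested position in the next base. This can be the other strand of the same CpG or, in a stretch such as CGCG, the neighbouring CpG. At 312 of these (91.2%) the neighbour differed in the same direction, against 58.5% of all 304509 such pairs, and at 270 it did so by at least 25 points.

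**Figure D2:**
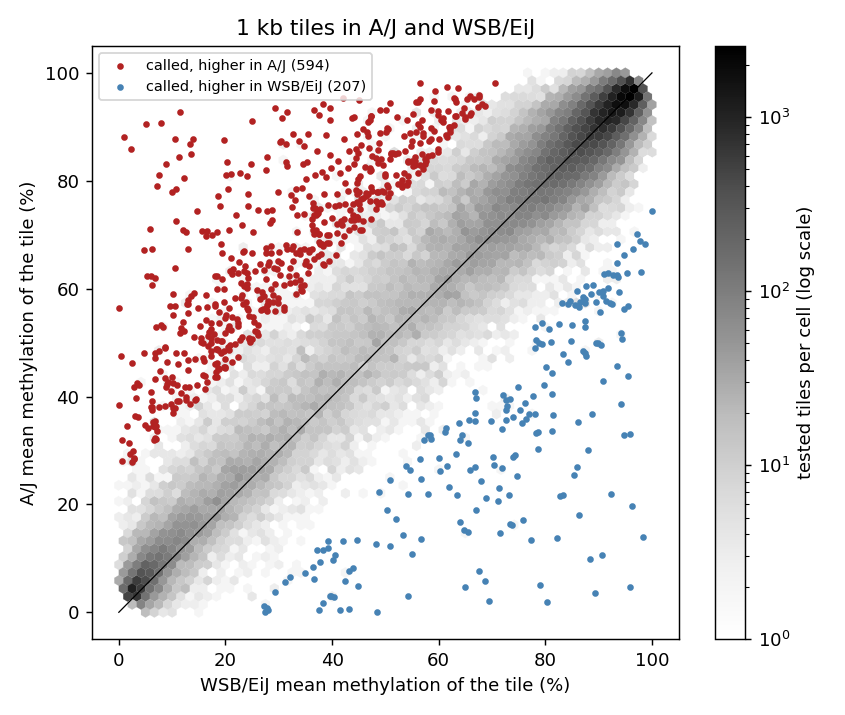
Mean methylation (%) of each 1 kb tile in WSB/EiJ (x axis) and A/J (y axis), with tested tiles as grey cells whose shade gives their number on a log scale. The 594 called tiles higher in A/J are red, the 207 higher in WSB/EiJ are blue, and the line marks equal levels.

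The typical called tile was not a switch between unmethylated and methylated. Levels under 20% are called low here, levels over 80% high, and those between intermediate. Of the 594 tiles higher in A/J, 235 (39.6%) were intermediate in both strains, 174 (29.3%) were intermediate in A/J and low in WSB/EiJ, 171 (28.8%) were high in A/J and intermediate in WSB/EiJ, and 14 (2.36%) were high in A/J and low in WSB/EiJ. Of the 207 tiles higher in WSB/EiJ, 69 (33.3%) were intermediate in both, 53 (25.6%) were low in A/J and intermediate in WSB/EiJ, 76 (36.7%) were intermediate in A/J and high in WSB/EiJ, and 9 (4.35%) went from low in A/J to high in WSB/EiJ. With limits of 30 and 70% the full switches made up 8.59 and 14.0%. Of all tested tiles 60.3% were high in both strains and 18.5% intermediate in both.

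The sizes had similar medians in both directions. The median difference was 33.4 points for tiles higher in A/J, with medians of 70.1% in A/J and 30.2% in WSB/EiJ, and 34.9 points for tiles higher in WSB/EiJ, with medians of 32.9 and 75.6%. Differences of 50 points or more were found in 70 tiles higher in A/J (11.8%) and 35 higher in WSB/EiJ (16.9%), and 75 points or more in 6 and 7 tiles. The higher level in A/J also ran through tiles that were not called. Of the tested tiles, 59.5% had the higher mean in A/J, a share that was 54.8% after centring and 48.3% after quantile normalization, and the median difference was 0.822 points. On the log2 ratio scale the median over tiles was 0.10, and over positions 0.17, and the calls stand beside this shift. After centring on it, 565 tiles were higher in A/J and 215 higher in WSB/EiJ, and after quantile normalization 505 and 217.

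Over all tiles, called or not, the share with the higher mean in A/J differed with level. It was 57.5% among tiles with a mean under 2.5%, where the averages of the 6 samples overlapped. Among tiles with a mean of 2.5 to 10%, 78.3% had the higher mean in A/J, where the average was 5.92% against 4.39% in WSB/EiJ. Among tiles of 10 to 20% this held for 71.6% (16.1 against 13.0%), of 20 to 50% for 66.1% (36.6 against 32.3%), of 50 to 80% for 57.4% (70.2 against 68.0%) and of 80 to 90% for 52.7% (86.2 against 85.6%). Above that the share was again higher, 57.6% of the 34864 tiles of 90 to 97.5% (94.2 against 93.8%) and 57.8% of those over 97.5% (98.3 against 97.9%). From 2.5% up, the averages of the A/J and WSB/EiJ samples overlapped in the bin of 80 to 90% and in no other. After quantile normalization the share among tiles with a mean under 20% was 51.5% within 5000 bp of a gene end, 49.8% at 5000 to 50000 bp and 41.3% farther out, against 79.4, 73.0 and 64.6% as deposited. Tiles that were intermediate on average in the other 7 strains held most calls: of 13573 such tiles 2.94% were higher in A/J and 0.722% higher in WSB/EiJ, against 0.422 and 0.251% of the 9964 that were low and 0.0867 and 0.0376% of the 34592 that were high.

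Tiles higher in A/J took a larger share of the tested tiles within 5000 bp of protein-coding gene ends than beyond, and tiles higher in WSB/EiJ took a similar share at every distance. Distances run from the middle of a tile to the nearest end of a gene, since the gene table used gives spans without strand. Within 250 bp of a gene end, 19 of 2329 tested tiles (0.816%) were higher in A/J and 5 (0.215%) higher in WSB/EiJ. From 250 to 1000 bp these were 61 and 18 of 6527 tiles (0.935 and 0.276%), and from 1000 to 5000 bp 151 and 34 of 16191 tiles (0.933 and 0.210%). From 5000 to 50000 bp they were 271 and 101 of 37358 tiles (0.725 and 0.270%), and farther out 92 and 49 of 21447 tiles (0.429 and 0.228%). The share of all tested tiles with the higher mean in A/J went from 72.3% within 250 bp to 50.01% beyond 50000 bp. After centring it went from 67.0 to 45.3%, and after quantile normalization from 50.2 to 41.1%. Up to 5000 bp from a protein-coding gene end the share stayed above 50% under each of these scalings, at 50.2, 51.0 and 54.3% in the 3 nearest bins after quantile normalization, while beyond 50000 bp it was under 50% after centring and after quantile normalization. By other measures it did fall under 50% after quantile normalization. It was 48.95% within 250 bp of the end of any gene and 48.05% at 250 to 1000 bp from a transcription start. The other bins up to 5000 bp by these measures were above 50%. Measured to transcription starts, a choice made after seeing the data, the share higher in A/J was 1.03, 0.723, 0.993, 0.681 and 0.578% over the same distances, without a steady order. Measured to the ends of any gene it was 0.628% within 250 bp, under the 0.708% over all tested tiles, and 0.974, 0.850, 0.648 and 0.326% farther out.

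**Figure D3:**
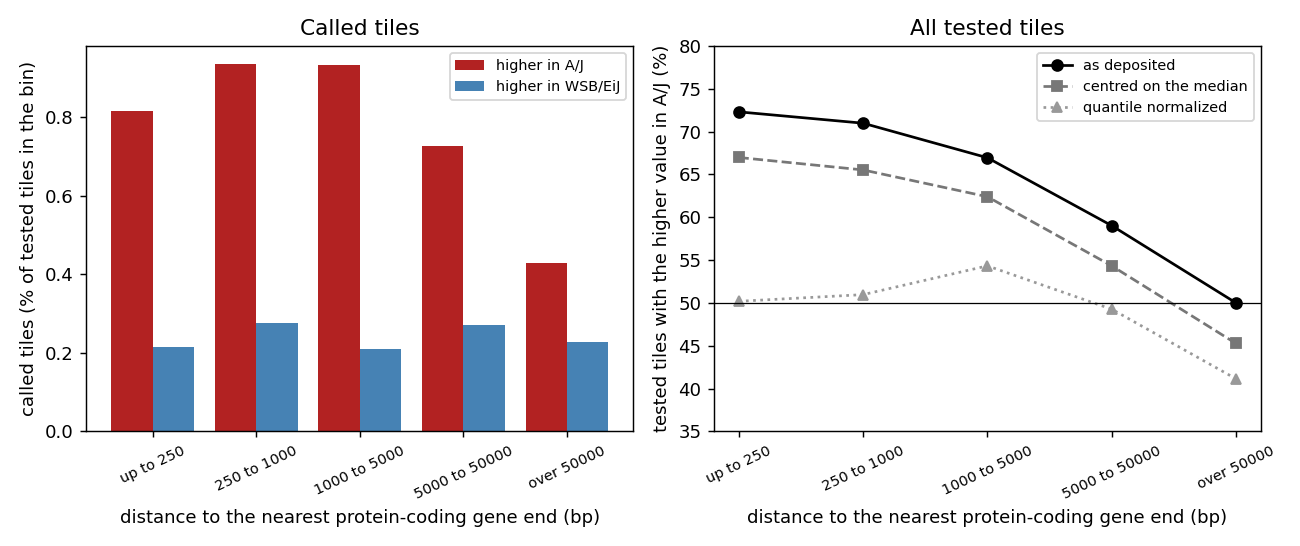
Called tiles in each direction as a percent of the tested tiles (left, bars) and the percent of all tested tiles with the higher value in A/J under 3 scalings (right, lines), by distance in bp from the middle of the tile to the nearest end of a protein-coding gene. The share higher in A/J is 0.816% within 250 bp and 0.429% beyond 50000 bp, and the share higher in WSB/EiJ is 0.215 and 0.228%.

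The directions also differed in what the tiles covered. Of the tiles higher in A/J, 423 (71.2%) overlapped a protein-coding gene, against 100 (48.3%) of those higher in WSB/EiJ and 59.3% of all tested tiles. Of 13265 protein-coding genes overlapped by a tested tile, 400 (3.02%) had a tile higher in A/J, 94 (0.709%) had one higher in WSB/EiJ, and 8 had both. Called tiles with many shared positions were mostly higher in A/J. Among tested tiles with 50 or more positions 27 were higher in A/J (1.23% of 2202) and 1 was higher in WSB/EiJ (0.0454%). Among those with 5 to 9 positions 305 (0.593% of 51457) and 149 (0.290%) were. The single tile with 50 or more positions that was higher in WSB/EiJ lies within Snx20, the gene of a sorting nexin. It is named here by the rule for gene ends as well. Its 138 positions averaged 11.9, 10.02 and 10.4% in A/J and 55.1, 53.3 and 56.6% in WSB/EiJ.

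Called tiles were spread over the genome. On 18 of the 19 autosomes more tiles were higher in A/J. Of 3268 tested tiles on chromosome 13, 9 were higher in A/J and 10 higher in WSB/EiJ, and of 2719 on chromosome X, 2 and 5. The share of tested tiles with the higher mean in A/J was 56.9% on chromosome 13 and 60.3% on X. Over the 19 autosomes this share ran from 56.1 to 63.2%. Of 2580 windows of 1 Mb with a tested tile, 522 held a called one. Of the 178 windows with at least 2 called tiles, 114 held a single direction and 64 both, and no window held more than 7. Adjacent called tiles of the same direction formed 37 runs higher in A/J and 4 higher in WSB/EiJ. The longest runs were of 3 tiles and higher in A/J, and the one at Wnt5a is described here after its values were seen. The other lay at chr7:44601001-44604000. The limma call of its middle tile was lost without any 1 of the 6 samples (adjusted p from 0.0626 to 0.142). That of its last tile was lost without A/J replicate 1 or 2 (adjusted p from 0.0506 to 0.0512).

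Wnt5a, which encodes a secreted Wnt ligand, held a run of this kind at chr14:28509001-28512000, 4958 to 6958 bp from an end of the gene. Its first tile (26 positions) stood at 68.2, 72.2 and 72.3% in A/J and at 12.5, 12.5 and 10.97% in WSB/EiJ. The middle tile (19 positions) stood at 81.5, 80.7 and 91.3% against 10.7, 12.7 and 10.5%, and the last (28 positions) at 72.7, 67.9 and 72.6% against 8.24, 5.48 and 3.71%. No A/J sample came near a WSB/EiJ sample in any of them. The limma calls of the Wnt5a tiles were kept with each sample left out in turn.

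Among the 10 tiles with the largest difference higher in A/J, 7 overlapped a gene and 3 lay between genes. The largest lay 36269 bp from the end of Otud7a, a gene for a deubiquitinating enzyme, at chr7:63802001-63803000. Its 5 positions averaged 88.7, 88.4 and 87.1% in A/J and 0, 0 and 2.67% in WSB/EiJ. They lie from 63802987 to 63802998, so the values cover an edge of the tile and not the whole 1 kb. The next lay within Ptprk, which encodes a receptor-type protein tyrosine phosphatase, at chr10:28524001-28525000 (12 positions), with 87.3, 93.9 and 90.2% in A/J and 6.60, 2.87 and 5.74% in WSB/EiJ. Both tiles went nearly the full range between the strains. A tile within Crocc, the gene of the ciliary protein rootletin, had the most positions of these 10 (56, chr4:141025001-141026000). It stood at 87.2, 88.2 and 87.6% in A/J and at 8.45, 9.53 and 13.5% in WSB/EiJ, and the samples were apart at 55 of the 56 positions.

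A tile within Slc25a13, which encodes citrin, a mitochondrial aspartate and glutamate carrier that serves the urea cycle in liver, had 5 positions at 87.1, 98.2 and 93.1% in A/J. In WSB/EiJ they stood at 11.9, 12.4 and 10.3%. The other 6 of these tiles, within Gm28455, Coro2b, Lactbl1 and Zfp872 and, by nearest protein-coding gene, near Rnf144a (435293 bp away) and Wnt8b, had means of 81.1 to 90.8% in A/J and 2.35 to 14.0% in WSB/EiJ. Coro2b encodes an actin-binding coronin, and Wnt8b a Wnt ligand.

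The largest difference of all was higher in WSB/EiJ. It lay at Gm7049, listed as a pseudogene, at chr13:62812001-62813000, where 23 positions averaged 3.86, 8.80 and 1.45% in A/J and 97.9, 94.2 and 95.4% in WSB/EiJ. Every sample of WSB/EiJ lay above every sample of A/J at all 23, which lie from 62812925 to 62812995. A tile 3567 bp from an end of Sipa1l2, at chr8:125414001-125415000, had 7 positions at 4.79, 2.81 and 3.27% in A/J and 89.2, 90.6 and 88.2% in WSB/EiJ. Adjacent tiles at the facing ends of Ube2l6 and Smtnl1 were both high only in WSB/EiJ among the 9 strains. Their positions lie from 84810861 to 84810902 and from 84811022 to 84811041, close to the border between the tiles. Ube2l6 encodes a conjugating enzyme for the ubiquitin-like protein ISG15, and its tile at chr2:84810001-84811000 stood at 14.7, 16.6 and 10% in A/J and at 87.4, 79.8 and 79.4% in WSB/EiJ. Smtnl1 encodes a smoothelin-like muscle protein, and its tile at chr2:84811001-84812000 stood at 4.89, 0.952 and 0% in A/J and at 81.9, 78.8 and 80.3% in WSB/EiJ. The other strains lay between 6.62 and 17.3% at the first and between 0.513 and 6.79% at the second.

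The other 6 of the 10 largest tiles higher in WSB/EiJ had means of 5.00 to 21.9% in A/J and 79.0 to 98.3% in WSB/EiJ. They lie within Gm7177, Gm35198 and Dnaaf1, whose product assembles the dynein arms of cilia, and, with their nearest protein-coding genes, near Wbp2, Adnp and Slc22a5, the gene of a carnitine transporter. The tile near Adnp is 25464 bp from that gene and 988 bp from the start of E130018N17Rik. Its positions lie from 168155903 to 168155923, and those of the tile near Wbp2 from 116092115 to 116092132. The tile near Wbp2 lost its limma call without WSB/EiJ replicate 2 or 3 (adjusted p 0.0572 and 0.0575), and that near Adnp without WSB/EiJ replicate 2 or 4 (adjusted p 0.0535 and 0.0508). The Gm7177 tile is 6571 bp from the end of Prdm9, the gene of a histone methyltransferase that places meiotic recombination.

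**Figure D4:**
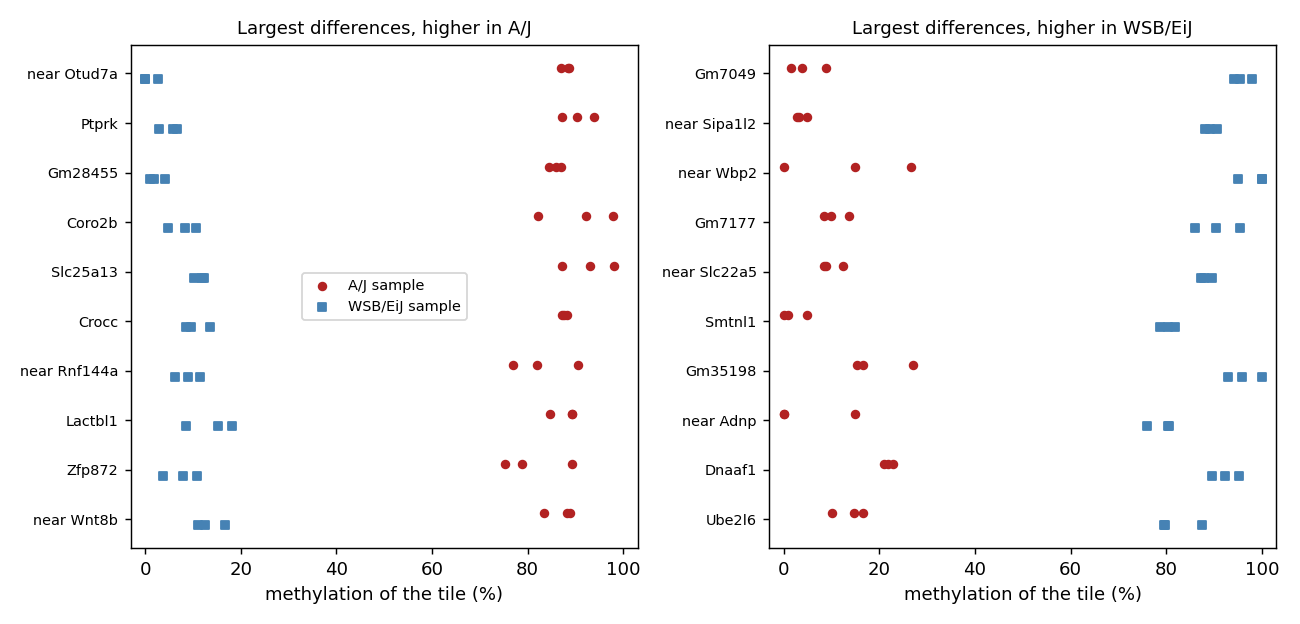
Methylation (%) of the 10 called tiles with the largest difference in each direction, with 1 point per sample (A/J red circles, WSB/EiJ blue squares) and the gene the tile overlaps or, marked near, the nearest protein-coding gene. The rows were chosen among called tiles in which the 3 A/J points and the 3 WSB/EiJ points are apart. They run from the tile near Otud7a (88.1 against 0.889%) to that of Gm7049 (4.70 against 95.8%).

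Tiles within 1000 bp of either end of a gene are described next. Tested tiles there averaged 42.6% in A/J and 40.4% in WSB/EiJ up to 250 bp, and 45.4 and 43.2% from 250 to 1000 bp. The largest differences higher in A/J, beside Gm28455, Lactbl1 and Zfp872, lay over the facing ends of Alkbh6 and Syne4 at chr7:30314001-30315000, with 73.9, 77.6 and 85.7% in A/J and 5.15, 6.399 and 9.81% in WSB/EiJ. Alkbh6 belongs to a family of oxygenases, and Syne4 encodes a protein of the nuclear envelope. The other such tiles higher in A/J, at C1qtnf12, Phactr4, Lxn (2 tiles), Arl9 and Abi3 (the last overlapping Phospho1 as well), had means of 66.6 to 88.7% in A/J and 6.17 to 35.5% in WSB/EiJ. The Phactr4 tile was the most variable of them, at 55.6, 88.9 and 57.4% in the A/J samples. Its limma call was lost without any 1 of the 6 samples (adjusted p from 0.0587 to 0.104). Phactr4 also overlapped 1 called tile higher in WSB/EiJ. Higher in WSB/EiJ were, beside Smtnl1, Ube2l6, Gal, Akr1b8 and Snx20, tiles at Gm51464, Shcbp1l, Crybg2, Mbd2 and Serpina1a, with means of 0 to 42.9% in A/J and 48.3 to 90.8% in WSB/EiJ.

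The whole Gal tile (47 positions, chr19:3414001-3415000) stood at 11.3, 13.5 and 15.6% in A/J and at 79.3, 73.8 and 78.8% in WSB/EiJ. Its 44 positions listed in all 27 samples put WSB/EiJ at 77.2% and A/J at 14.3%, with the other 7 strains between 10.4% (NZO/HlLtJ) and 18.8% (DBA/2J), so that WSB/EiJ stood alone among the 9. The Lxn tile at chr3:67463001-67464000, which overlaps the printed window and reaches beyond it, divided the strains otherwise. At its 8 positions listed in all 27 samples A/J stood at 80.5% and WSB/EiJ at 16.3%, and the other strains ran from 12.4% in PWK/PhJ to 69.0% in 129S1/SvImJ.

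Genes that matter to hepatocytes were read through lists. Of the 22 hepatocyte transcription factors and nuclear receptors, all with a tested tile, 3 had a tile higher in A/J and 0 a tile higher in WSB/EiJ, in 100 tested tiles (3.00% called, against 0.955% of all tested tiles). The median difference over these tiles was 3.48 points, and 81.0% had the higher mean in A/J (71.0% after quantile normalization), beside 0.822 points, 59.5% and 48.3% over all tiles. For this and the following lists, the share with the higher mean in A/J over all tested tiles within 5000 bp of a gene end is a closer comparison: it was 79.4% at means under 20%, 68.7% at 20 to 80% and 62.0% above, and 51.5, 53.2 and 53.9% after quantile normalization. Of the 6980, 6115 and 11952 tiles in these classes, 9, 219 and 3 were called higher in A/J, and 4, 52 and 1 higher in WSB/EiJ. The called share of a list thus depends on the levels of its tiles. Nr5a2 encodes the nuclear receptor LRH-1, a regulator of bile acid and cholesterol genes. Its tile at chr1:136953001-136954000, with its middle 129 bp from a transcription start, held 33 positions at 31.6, 41.8 and 39.2% in A/J and 4.72, 5.61 and 8.29% in WSB/EiJ. Foxa1, a pioneer factor of liver development, had a tile at 45.8, 47.4 and 56.5% in A/J and 22.2, 11.1 and 14.3% in WSB/EiJ, at chr12:57548001-57549000, where it overlaps Ttc6 as well. Prox1, a homeobox factor of hepatocytes, had one at 49.6, 53.6 and 53.5% against 24.9, 25.7 and 26.0%. As in every called tile, the strains did not overlap in any of the 3. The limma call of Nr5a2 was kept with each sample left out in turn. That of Foxa1 was lost without any sample other than WSB/EiJ replicate 2 (adjusted p from 0.0625 to 0.0870), and that of Prox1 without any other than A/J replicate 1 (adjusted p from 0.0569 to 0.0668). At the Nr5a2 and Prox1 tiles 1 of the other 7 strains lay nearer A/J, and at the Foxa1 tile 4 did.

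Of 30 genes of glucose, fatty acid and cholesterol metabolism, 27 had a tested tile, 2 had a tile higher in A/J and 0 a tile higher in WSB/EiJ (1.42% of 141 tiles called, against 0.955% of all). Of these, Acacb encodes the acetyl-CoA carboxylase that restrains fatty acid oxidation, and its tile at chr5:114147001-114148000 stood at 62.0, 85.3 and 68.3% in A/J and at 13.4, 26.4 and 29.5% in WSB/EiJ. As in every called tile, the strains did not overlap there. The limma call of Acacb was lost without any 1 of the 6 samples (adjusted p from 0.0634 to 0.110). Over the tiles of this list 75.9% had the higher mean in A/J (63.8% after quantile normalization), against 59.5% (48.3%) of all tested tiles. Of 23 genes for plasma proteins and transport 18 had a tested tile, and Serpina1a, which encodes an alpha-1-antitrypsin, was alone in having a called one, higher in WSB/EiJ (2.70% of 37 tiles called). Over that list the median difference was 4.11 points, and 78.4% of the tiles had the higher mean in A/J (67.6% after quantile normalization). The Serpina1a tile, at chr12:103864001-103865000, lies 882 bp from the gene and stood at 25.7, 27.1 and 27.6% in A/J and at 76.3, 77.5 and 61.5% in WSB/EiJ. The limma call was lost without A/J replicate 1 or 2 or WSB/EiJ replicate 2 or 3 (adjusted p from 0.0506 to 0.0567). Serpina1a belongs to a family of near-identical copies, between which reads may be assigned to the wrong copy. The 13 of 22 cytochrome P450 and conjugation genes with a tested tile had 0 called tiles among 32, of which 75% had the higher mean in A/J (59.4% after quantile normalization). At the 0.955% called over all tested tiles, a list of this size cannot show a lack of calls.

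Outside liver function, developmental homeobox, Pax and Sox genes had the higher mean in A/J in 84.6% of their 227 tiles, and in 64.3% after quantile normalization, against 59.5 and 48.3% of all tested tiles. Of these 30 genes Pax7 and Nkx2-2, transcription factors of muscle stem cells and of the ventral neural tube and pancreas, had called tiles, all higher in A/J (1.32% of the tiles, against 0.955% of all). The 2 Pax7 tiles had means of 74.3 and 75.7% in A/J and of 37.3 and 48.6% in WSB/EiJ. The Nkx2-2 tile stood at 38.7, 42.0 and 30.1% in A/J and at 12.0, 7.82 and 10.5% in WSB/EiJ. The limma calls of both Pax7 tiles were lost without any 1 of the 6 samples (adjusted p from 0.0551 to 0.0959), and that of Nkx2-2 without any other than A/J replicate 3 (adjusted p from 0.0596 to 0.0739). Of 30 imprinted genes 1 had a called tile, which is 0.763% of their 131 tiles and near the 0.955% over all tested tiles: Slc38a4, which encodes an amino acid transporter of liver, stood at 83.3, 77.3 and 70.7% in A/J and at 20, 20 and 16% in WSB/EiJ at chr15:97032001-97033000. The positions of the Slc38a4 tile lie from 97032311 to 97032336. Over the tiles of the imprinted genes 64.9% had the higher mean in A/J, which turned to 48.9% after quantile normalization, against 59.5 and 48.3% of all tested tiles. Of 20 regulators of DNA methylation and chromatin 18 had a tested tile, and Mbd2, whose product binds methylated CpGs, had a called one (0.943% of 106 tiles), at 21.4, 64.3 and 42.9% in A/J and 93.9, 85.7 and 92.9% in WSB/EiJ. The A/J samples differed widely there but stayed under those of WSB/EiJ, and the limma call was lost without any sample other than A/J replicate 2 (adjusted p from 0.0751 to 0.155). Over that list the median difference was 1.23 points, and 69.8% of the tiles had the higher mean in A/J (59.4% after quantile normalization). The 4 of 6 genes with a known A/J allele that had tested tiles had 0 called ones among 85, against 0.955% called over all tested tiles. A list of this size cannot show a lack of calls. Its median difference was -0.0569 points, and 48.2% of its tiles had the higher mean in A/J (36.5% after quantile normalization). Over all tested tiles these values were 0.822 points, 59.5% and 48.3%.

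The levels of the called tiles in the other 7 strains were not used to choose them. The tiles were chosen for a difference between A/J and WSB/EiJ, so in both directions other strains are apt to fall between these. At the 471 tiles higher in A/J with at least 3 positions in all 27 samples, the mean was 67.1% ± 0.407 in A/J and 30.8% ± 0.946 in WSB/EiJ (SD, n = 3). The other strains all fell between, from 47.0% ± 1.08 in C57BL/6J to 53.0% ± 0.177 in NOD/ShiLtJ. Tile by tile, C57BL/6J lay nearer A/J at 41.8% of them and NOD/ShiLtJ at 64.8%, the lowest and highest of the 7. All 7 strains lay nearer A/J, leaving WSB/EiJ alone, at 46 tiles (9.77%), and all 7 lay nearer WSB/EiJ, leaving A/J alone, at 24 tiles (5.10%).

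The 136 tiles higher in WSB/EiJ showed another order. A/J stood at 32.1% ± 0.514 and WSB/EiJ at 69.2% ± 0.684. The laboratory strains ran from 37.4% in DBA/2J to 43.6% in 129S1/SvImJ, whereas PWK/PhJ stood at 54.6% ± 0.708 and CAST/EiJ at 55.7% ± 0.997. PWK/PhJ and CAST/EiJ are the other strains derived from wild mice, and they lay nearer A/J at 43.4 and 36.8% of these tiles, against 61.8 to 78.7% for the laboratory strains. WSB/EiJ stood alone at 14 tiles (10.3%) and A/J alone at 6 (4.41%). In the tiles higher in A/J the strains derived from wild mice did not stand apart from the laboratory strains in this way: CAST/EiJ stood at 48.9% and PWK/PhJ at 52.6%. No test was made of either order.

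**Figure D5:**
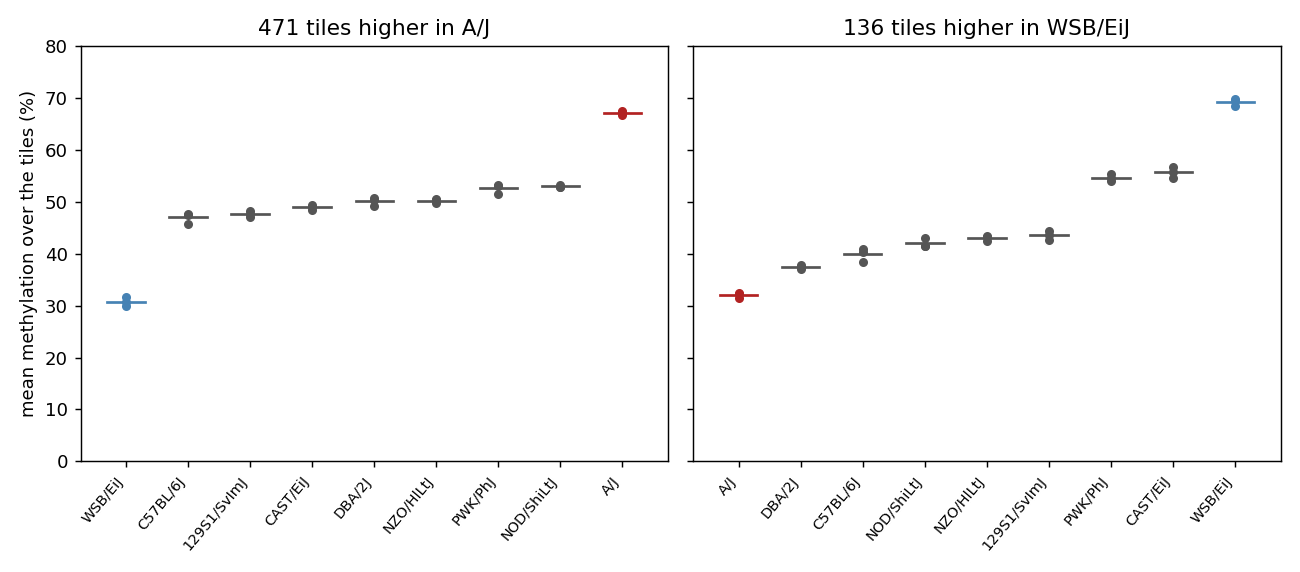
Mean methylation (%) in each of the 27 samples over the 471 tiles higher in A/J (left) and the 136 higher in WSB/EiJ (right), by strain in order of the mean, with 1 point per sample and a bar at the strain mean (n = 3). A/J is red, WSB/EiJ blue and the other strains grey, and PWK/PhJ and CAST/EiJ lie above the laboratory strains on the right.

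The strains also differed in which positions were listed, and the part of sequence variants and of depth in this was not tested. Between 2958685 and 3009290 positions were listed per A/J sample and between 3029130 and 3156965 per WSB/EiJ sample. Of 2601834 positions listed in all 3 A/J samples, 124116 (4.77%) were listed in no WSB/EiJ sample, and of 2695922 listed in all 3 WSB/EiJ samples 134828 (5.00%) were listed in no A/J sample. Their mean levels were alike, 71.1 and 69.9%. Positions listed for A/J alone were also listed in C57BL/6J in 72.5% of cases, and those for WSB/EiJ alone in 42.8%. In the RefSeq promoter windows, 0.291% of the positions listed in all 6 samples were not in a CpG of the reference, against 10.2% of those listed for A/J alone and 19.4% of those for WSB/EiJ alone. A C-to-T variant reads as an unmethylated C after bisulfite, and the part of such variants in the called tiles was not tested.

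Levels within 500 bp of transcription starts were also read at marker genes of hepatocytes and of other cell types. Of 10 hepatocyte markers 4 could be read, Hnf4a, Asgr1, Fgb and Apob, and all were under 20%, with a median of 5.51%. Of the 10 immune cell markers 0 could be read. Of 6 endothelial markers 2 could be read, Kdr at 1.83% in A/J and 0.843% in WSB/EiJ and Tek at 44.0 and 45.2%. Of 6 stellate cell and fibroblast markers 3 could be read, all under 20%. Low levels were thus found at markers of hepatocytes and of other cells, so they cannot show which cells were sampled. Of 5 bile duct markers 3 could be read. Epcam, an adhesion molecule of bile duct cells, had a called tile 478 bp from its start, at 52.7, 64.1 and 69.2% in A/J and 27.2, 22.4 and 23.1% in WSB/EiJ, and its limma call was lost without any sample other than A/J replicate 1 (adjusted p from 0.0538 to 0.0778). Krt7 stood at 27.8 and 17.3%, and Spp1 went the other way at 68.6 and 75.9%. Whether the cell mixture differed between the strains, and its part in the called tiles, was not tested.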

How the data were processed

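Per the labels' protocols, hepatocyte DNA was cut with MspI, ligated to adapters, converted with bisulfite and amplified by PCR. The authors deposited 1 list of positions per sample with a percent methylation from 0 to 100, per the file headers, without read counts; any filter on coverage is not given in the sources used here. The submitters' processing notes name Trim Galore 0.6.3, Bowtie2 and Bismark 0.22, and the builds GRCm38 and mm10. In the RefSeq promoter windows of GRCm38.p6 only 0.0466% of the C57BL/6J positions, 0.477% of those of A/J and 0.624% of those of WSB/EiJ fell outside a reference CpG.

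Groups are the strains named in the labels. Positions listed in all 6 samples, and means of 1 kb tiles with at least 5 of them, were compared by limma's moderated test on log2((percent + 5)/(100 - percent + 5)), for values with a mean from 2.5 to 97.5%, with Benjamini-Hochberg adjustment over all features. A count model had been planned but needs read counts. The test was run in Python 3.11.15 (numpy 2.4.6, scipy 1.17.1, pandas 2.3.3) and checked against limma 3.58.1 in R 4.3.3: of 83852 tiles, both gave 1694 an adjusted p under 0.05, and 0 tiles fell on different sides of that limit. It was also tested on simulated data. Figures were drawn with matplotlib 3.10.9.

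Named tiles are the 10 largest in each direction, the 10 largest within 1000 bp of a protein-coding gene end in each direction, and called tiles within 5000 bp of a gene of the lists. For the first group every sample of the higher strain had to lie above every sample of the lower. Some called tiles are not reported here. The members and lists were chosen with earlier results of these data known. Alternatives changed the offset, filter, size limit, scaling, tile, chromosomes and samples. The calls measure the spread among 3 samples per strain. For replicates that share a number (2 and 3), deviations from the strain means had correlations of 0.00343 and -0.000283 over tiles. Such a correlation leaves out any shift common to all tiles. Whether the numbers pair the samples therefore cannot be told from it.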

Additional observations from a re-analysis of the deposited data

How the results depend on the processing

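No alternative turned the split of called tiles or positions to WSB/EiJ or reversed the difference in level, but the order of the directions in the share near gene ends did turn. For named tiles the offset and scalings changed the call and not the difference in percent, so a change of direction there was not tested. The shares with the higher mean in A/J did cross 50% after quantile normalization for all tested tiles (59.5 to 48.3%), imprinted-gene tiles (64.9 to 48.9%) and tiles 5000 to 50000 bp from a protein-coding gene end (59.0 to 49.3%). Further crossings included tiles beyond 50000 bp from such an end (50.01 to 41.1%) and within 250 bp of any gene end (66.9 to 48.95%). Tiles 250 to 1000 bp from a transcription start crossed as well (70.2 to 48.05%). Over 44 named tiles, 687 of 838 alternative values kept their call and 151 lost it; 30 tiles kept it with each sample left out in turn, and 34 under the alternatives other than leaving out a sample, the block and the 50-point limit. The percent of called tiles higher in A/J ranged from 66.7 to 83.2% over the alternatives that called any tile, and that of positions from 55.0 to 77.1%.

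Tiles numbered 525 (383 higher in A/J) with an offset of 1 point. They numbered 1601 (1240 and 361 in the 2 directions, 77.5% higher in A/J) with a limit of 10 points and 105 (70 and 35, 66.7%) with 50 points. With at least 10 positions 392 of 32395 tested tiles were called (326 and 66, 83.2%). With at least 3 positions 70.8% were higher in A/J, after quantile normalization 69.9%, and with the spread of all 27 samples, at 44904 tiles of positions listed in all of them, 81.0%, with 114 higher in WSB/EiJ. With a sample left out 327 to 435 tiles were called, 219 to 309 higher in A/J and 90 to 127 higher in WSB/EiJ (67.0 to 73.6% higher in A/J).

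Positions numbered 150 (98 and 52) with an offset of 1 point and 4936 (3521 and 1415, 71.3% higher in A/J) on untransformed percent. Without the filter 2687 of 2362100 tested positions were called (1828 and 859). With the spread of all 27 samples 5764 were called (4444 and 1320, 77.1%), at the 685465 positions listed in all of them. Centring gave 62.9% and quantile normalization 60.7% higher in A/J. With a sample left out 237 to 330 were called, 163 to 205 higher in A/J and 74 to 144 higher in WSB/EiJ (55.0 to 69.7%). With limits of 30 and 70% full switches were 8.59 and 14.0% of the tiles of each direction, and to the ends of all genes 20.7 and 21.3% lay within 1000 bp, against 13.5 and 11.1% for protein-coding genes. The alternative with all 27 samples changed the features and the spread together. The cause of these shifts was not tested.

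With the replicate number as a block, in which the difference rests on the 4 samples numbered 2 and 3 and 1 residual degree of freedom is left, limma called 0 positions and 0 tiles, with an unadjusted p under 0.05 at 87406 positions (7.74%) and 9782 tiles (11.7%). Without it these were 88852 and 13260. Depth is unknown, so its limits on single positions cannot be given.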
